A study of Mus musculus with 6 samples.

Results

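The granins and the enzymes that process prohormones form the peptide side of the chromaffin granule, and 10 of their genes were followed here in whole adrenal glands: the granins Chga, Chgb, Scg2, Scg3 and Vgf, the convertases Pcsk1 and Pcsk2, their small partner proteins Pcsk1n and Scg5, and the carboxypeptidase Cpe. The genes were listed by name and known function, with earlier results of these data in view, so the shares of them that stood apart are a description. Each symbol matched 1 of the 53103 named loci of the deposited count table, and all 10 passed the filter on low counts that left 21358 loci to test. The compared samples were 3 Armc5 knockout (KO, Armc5(-/-)) and 3 wild-type (WT) adrenal gland samples, all from female mice aged 30 weeks on a 129 sv X CD1 background. The labels name no other allele or agent, and they give neither the deleted part of Armc5 nor the animal behind each sample. The replicates could thus be technical, and p-values reflect only how these 6 samples scatter. RNA was sequenced after removal of ribosomal RNA, and the depth was 70547288 to 122924298 counts per library in KO against 89806230 to 130573434 in WT. Armc5 itself stood at 3.58, 3.53 and 3.65 CPM (counts scaled to equal library size with TMM factors) in KO against 27.3, 25.3 and 27.8 CPM in WT (edgeR adjusted p = 0.00041), lower in each library labelled KO than in each labelled WT. Markers of the cortex and of chromaffin cells were counted in every library.

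Chromaffin cells of the adrenal medulla store catecholamines in dense-core granules together with large amounts of acidic proteins, the granins. Granins aggregate with calcium and hormones in the acidic trans-Golgi lumen, which helps to build the granule, and they are themselves precursors of peptides. The convertases PCSK1 and PCSK2 cut precursors after pairs of basic residues, and carboxypeptidase E then removes those residues from the new carboxyl ends. PCSK2 needs the chaperone encoded by Scg5 to become active, and the product of Pcsk1n inhibits PCSK1.

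Several granin and convertase promoters are known for a cAMP response element, the palindrome TGACGTCA that proteins of the CREB family bind, so the start regions of the genes are shown for this motif. RefSeq promoters (build GRCm38.p6, the build of the deposited coordinates) were found for 8 of the 10 genes, and the 250 bases before each start were searched on both strands for TGACGTCA, which is its own reverse complement, and for the shorter TGACGT, or ACGTCA on the other strand, which every full motif also contains. The full motif was found before 3 of the 8 genes, Chgb, Scg2 and Pcsk1, and in 1.55% of all 32851 promoters of the table. The shorter motif was found before 5 of the 8, the same 3 genes with Chga and Scg5, and in 6.47% of all promoters. Each match is printed in the 5′ to 3′ direction of the gene with the motif in capitals; they describe the letters and not a bound site. The windows lie at chr2:132781559-132781588 (plus strand) for Chgb, chr1:79440076-79440105 (minus) for Scg2, chr13:75089768-75089797 and chr13:75089795-75089824 (plus) for Pcsk1, chr12:102554885-102554914 (plus) for Chga and chr2:113829249-113829278 (minus) for Scg5. The Chgb and Scg2 windows fall inside an annotated exon of the gene itself, for which GENCODE gives a start further upstream. The motifs end 64 (Chgb), 60 (Scg2), 70 and 44 (Pcsk1), 38 (Chga) and 169 (Scg5) bases before the RefSeq start.
Chgb: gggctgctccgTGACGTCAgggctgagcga
Scg2: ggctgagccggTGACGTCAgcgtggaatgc
Pcsk1, upstream match: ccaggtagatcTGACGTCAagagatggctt
Pcsk1, downstream match: ctttcgtcgattTGACGTgtaaacactcat
Chga: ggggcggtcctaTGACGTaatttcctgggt
Scg5: aaaggaggtaaaTGACGTtcataggggtcg
The whole 250 bases before Chga (chr12:102554691-102554940, plus strand, no exon) give the context of a promoter with the shorter motif alone.
Chga promoter: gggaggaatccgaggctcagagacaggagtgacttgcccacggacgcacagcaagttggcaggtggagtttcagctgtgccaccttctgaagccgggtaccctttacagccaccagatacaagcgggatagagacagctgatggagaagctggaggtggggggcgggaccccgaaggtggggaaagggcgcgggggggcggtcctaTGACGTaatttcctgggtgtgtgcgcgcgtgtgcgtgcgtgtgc
For Scg3, Pcsk2 and Pcsk1n these letters are not in this window, and no promoter of Vgf or Cpe was used here.

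Most of the genes stood higher in KO adrenal glands. In 8 of the 10 all KO libraries exceeded all WT libraries, against 16.3% of all tested loci, and none lay wholly below, against 14.2%. Chga, Scg3, Vgf, Pcsk1 and Pcsk1n were called higher in KO, 5 of 10 against 1.41% of all tested loci, and none was called lower, against 0.431% (1.84% in either direction; edgeR quasi-likelihood test, two-sided, Benjamini-Hochberg adjusted p under 0.05 over 21358 loci). At an unadjusted p under 0.05, 8 of the 10 passed, against 22.2% of all tested loci in either direction. Chgb, Scg2 and Pcsk2 stood apart between the groups and missed the threshold, and Scg5 and Cpe overlapped. The median log2 fold change of the 10 genes was 1.02, beside -0.0063 for all tested loci, whose 5th to 95th percentiles ran from -0.76 to 1.29. Together the 10 genes took 0.549%, 0.539% and 0.522% of the named counts in KO libraries, against 0.213%, 0.365% and 0.244% in WT libraries. Because the glands were sequenced whole, a change in the number of cells of a type and a change in RNA per cell cannot be told apart.

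**Figure D1:**
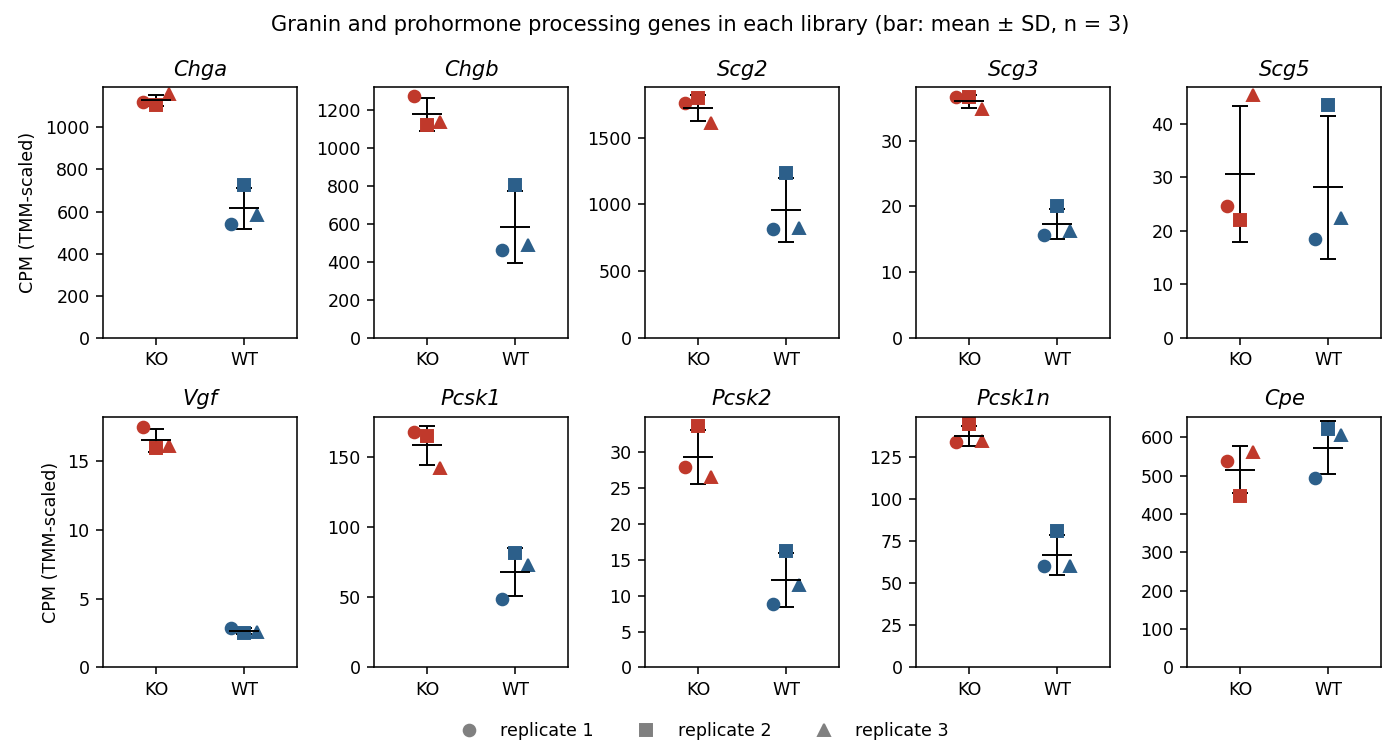
Level of each gene in CPM (TMM-scaled library sizes, linear axes from 0) in the 3 KO libraries (red, left) and 3 WT libraries (blue, right), with mean ± SD; the symbol shape gives the replicate number within a group. All KO points lie above all WT points in 8 panels, by the widest margin for Vgf, and the groups overlap for Scg5 and Cpe.

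The large granins Chga, Chgb and Scg2 were among the most abundant transcripts of the gland. Chga (chromosome 12, 102554969 to 102566828), which encodes chromogranin A, the precursor of vasostatin and catestatin, stood at 1119.6, 1106 and 1159 CPM in KO against 539.8, 726 and 583 CPM in WT. The KO libraries lay close together and all above WT, with means of 1128 ± 27.3 CPM in KO and 616 ± 97.2 CPM in WT (SD, n = 3 each), and Chga rose 1.83-fold (log2 fold change 0.87, SE 0.14, edgeR adjusted p = 0.044). Chgb (chromosome 2, 132781278 to 132795079), which encodes chromogranin B, stood at 1278, 1121 and 1139.9 CPM in KO against 465, 806 and 489 CPM in WT. WT replicate 2 was far above the other WT libraries but below every KO library, and the log2 fold change of 1.01 (SE 0.23) missed the threshold (edgeR adjusted p = 0.0802). Scg2 (chromosome 1), which encodes secretogranin II, the precursor of secretoneurin, stood at 1762, 1797 and 1608 CPM in KO against 816, 1233 and 821 CPM in WT. Its groups did not overlap, and its log2 fold change of 0.85 (SE 0.19) also missed the threshold (edgeR adjusted p = 0.0763). The deposited Scg2 locus spans 230096 bases, from 79210025 to 79440120, where GENCODE gives the gene 5452. It overlaps the long noncoding RNA Gm29536 on its strand, so a part of its counts may belong to other transcripts.

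Scg3, which encodes secretogranin III, a granin that ties chromogranin A to the cholesterol-rich granule membrane, was much scarcer. It stood at 36.6, 36.6 and 34.8 CPM in KO against 15.7, 20.0 and 16.3 CPM in WT. It rose 2.08-fold (log2 fold change 1.05, SE 0.12, edgeR adjusted p = 0.0202). The deposited Scg3 locus (chromosome 9, 75580129 to 75684056) spans 103928 bases against 40868 in GENCODE and overlaps Tmod2 on its strand and Lysmd2 on the other, so reads of these genes may be counted in it.

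The proportions among the large granins overlapped between the groups. Per kilobase of exon, the ratio of Scg2 to Chga was 2.98, 3.07 and 2.62 in KO against 2.86, 3.21 and 2.66 in WT, and that of Chgb to Chga was 1.71, 1.52 and 1.48 in KO against 1.29, 1.67 and 1.26 in WT. The ratio of Scg3 to Chga did not overlap, at 0.0399, 0.0404 and 0.0367 in KO against 0.0355, 0.0337 and 0.0341 in WT. These pairs, and the pairs below, were picked after the values were seen and are given with no test.

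Vgf showed the largest difference of the 10 genes. Vgf (chromosome 5, 137026392 to 137033351) encodes a granin-like protein first found as induced by nerve growth factor and cut into several neuropeptides. Its raw counts were 1929, 1217 and 2089 in KO against 293, 321 and 206 in WT, or 17.5, 16.0 and 16.1 CPM in KO against 2.89, 2.48 and 2.57 CPM in WT. The lowest KO library stood 5.52-fold above the highest WT library. The means were 16.5 ± 0.82 CPM in KO and 2.65 ± 0.216 CPM in WT (SD, n = 3 each), and Vgf rose 6.24-fold (log2 fold change 2.64, SE 0.13, edgeR adjusted p = 0.00176). Per kilobase, the ratio of Vgf to Chga was 0.0252, 0.0233 and 0.0225 in KO against 0.00866, 0.00553 and 0.00711 in WT. Vgf was a minor granin transcript in both groups, ranking 5698th of the tested loci by mean CPM per kilobase in KO and 13139th in WT, where Scg2 ranked 28th in KO and 59th in WT.

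Both convertases of the granule stood higher in KO, and only Pcsk1 passed the test. Pcsk1 (chromosome 13, 75089320 to 75134861), whose convertase acts early in the maturing granule, stood at 168, 165 and 143 CPM in KO against 49.2, 81.8 and 73.4 CPM in WT, and rose 2.33-fold (log2 fold change 1.22, SE 0.20, edgeR adjusted p = 0.0453). Pcsk2 (chromosome 2, 143546156 to 143816285), whose convertase makes the smaller peptides, stood at 27.9, 33.7 and 26.6 CPM in KO against 8.86, 16.2 and 11.5 CPM in WT. Its log2 fold change was 1.27 (SE 0.23) and its edgeR adjusted p was 0.0558; the antisense genes Pcsk2os1 and Pcsk2os2 lie over it, and the sources used here do not say whether reads were counted by strand. The ratio of Pcsk1 to Pcsk2 per kilobase overlapped between the groups, at 7.90, 6.42 and 7.02 in KO against 7.27, 6.60 and 8.39 in WT.

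The partner proteins of the convertases differed from each other. Pcsk1n (chromosome X, 7919822 to 7924410), which encodes proSAAS, a granin-like protein that inhibits PCSK1, stood at 134, 144 and 134 CPM in KO against 60.1, 80.8 and 60.0 CPM in WT. It rose 2.05-fold (log2 fold change 1.04, SE 0.14, edgeR adjusted p = 0.0283). Eras overlaps the locus on the opposite strand. The ratio of Pcsk1n to Pcsk1 per kilobase overlapped, at 2.19, 2.41 and 2.60 in KO against 3.37, 2.72 and 2.25 in WT. Scg5 (chromosome 2, 113776362 to 113829121), which encodes the chaperone of PCSK2, stood at 24.7, 22.0 and 45.3 CPM in KO against 18.6, 43.5 and 22.3 CPM in WT. A single library of each group, KO replicate 3 and WT replicate 2, stood well above the rest, and the groups overlapped (log2 fold change 0.12, SE 0.41, edgeR adjusted p = 0.891). The direction of Scg5 turned to -0.27 without KO replicate 3, -0.10 without WT replicate 1 and -0.02 without WT replicate 3. Set against the convertase it serves, the ratio of Scg5 to Pcsk2 per kilobase did not overlap, at 4.46, 3.29 and 8.59 in KO against 10.6, 13.5 and 9.83 in WT. Most of this difference lay in Pcsk2, whose own log2 fold change was 1.27.

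Cpe, abundant in both groups, did not stand higher in KO. The gene (chromosome 8, 64592542 to 64693054) stood at 538, 447 and 562 CPM in KO against 493, 622 and 605 CPM in WT, and the groups overlapped (log2 fold change -0.15, SE 0.14, edgeR adjusted p = 0.564). The sign of this difference depended on scaling, at 0.066 with library totals alone and 0.050 with equal Rn7sk counts. The ratio of Cpe to Pcsk1 per kilobase was 7.40, 6.28 and 9.13 in KO against 23.2, 17.6 and 19.1 in WT, with no overlap. Most of this difference lay in Pcsk1, whose own log2 fold change was 1.22.

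The order of the levels, as mean CPM per kilobase of exon, differed between the groups mainly in the places of Cpe and Vgf. In KO it ran from Scg2 at 678 through Chgb at 368, Chga at 235, Cpe at 198, Pcsk1n at 62.7, Pcsk1 at 26.3, Scg5 at 19.6, Scg3 at 9.14 and Vgf at 5.56 to Pcsk2 at 3.72. Among these neighbours only the libraries of Pcsk1 and Scg5 overlapped. In WT it ran from Scg2 at 377 through Cpe at 219.7, Chgb at 183, Chga at 128, Pcsk1n at 30.5, Scg5 at 17.9, Pcsk1 at 11.3, Scg3 at 4.40 and Pcsk2 at 1.54 to Vgf at 0.891. The WT libraries of Cpe and Chgb, of Chgb and Chga, of Pcsk1n and Scg5 and of Scg5 and Pcsk1 overlapped. Cpe ranked 81st of the tested loci in KO and 83rd in WT, while Chga ranked 69th in KO and 154th in WT.

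The WT libraries differed more among themselves than the KO libraries for most of these genes. WT replicate 2 was the highest WT library for 9 of the 10 genes and WT replicate 1 the lowest for 8. The coefficient of variation of Chga was 2.42% in KO and 15.8% in WT, that of Chgb 7.27% in KO and 32.5% in WT, and that of Scg2 5.85% in KO and 25.0% in WT. Vgf was called in every fit that left out 1 library (edgeR adjusted p from 0.0124 to 0.0228). Without KO replicate 1, KO replicate 2, KO replicate 3 or WT replicate 3 in turn, Vgf was the only gene of the 10 called, and without WT replicate 1 the called genes were Scg3, Vgf and Pcsk1. Without WT replicate 2, all but Scg5 and Cpe were called, 8 genes in all. Over these 6 fits the edgeR adjusted p ran from 0.0209 to 0.173 for Chga, 0.0161 to 0.109 for Scg3, 0.0323 to 0.177 for Pcsk1 and 0.0161 to 0.129 for Pcsk1n. KO replicate 3 held liver transcripts (4 hepatocyte markers summed to 2602 CPM there and to at most 14.1 CPM elsewhere), and WT replicate 1 had the highest cortex markers; without both of them, Vgf alone was called. DESeq2 called 8 of the 10 genes higher, where it called 7.49% of all its loci higher, and none lower, against 4.88%.

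**Figure D2:**
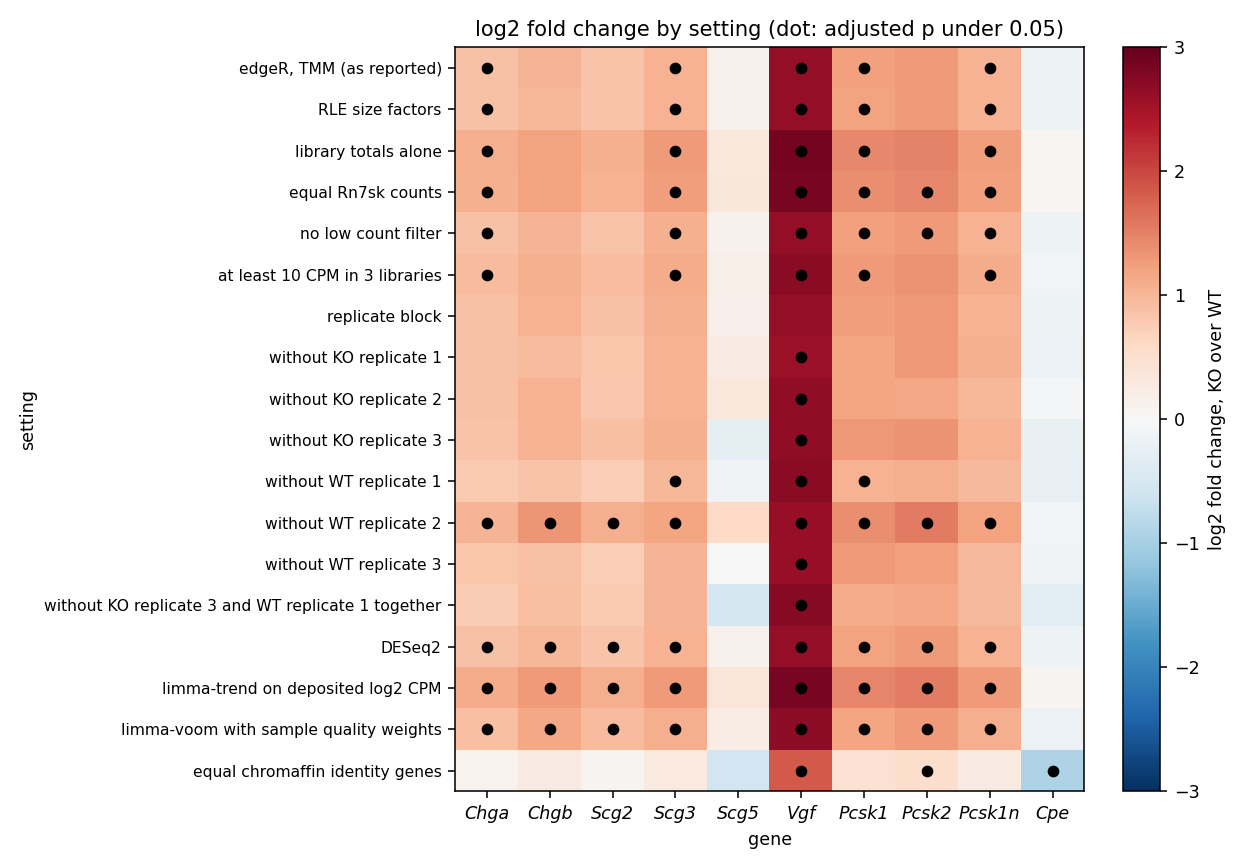
Log2 fold change of KO over WT (colour) for each gene (columns) under each setting (rows), with a dot where the adjusted p was under 0.05. Vgf carries a dot in every row but that of the replicate block, whereas Scg5 carries none and Cpe 1, in the row scaled to chromaffin identity genes.

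Other genes that mark chromaffin cells were higher in KO as well. Of 12 chromaffin identity genes, 4 were called higher and none lower, against 1.41% and 0.431% of all tested loci. At an unadjusted p under 0.05, 11 of the 12 passed, against 22.2% of all tested loci. DESeq2 called 11 higher, against 7.49% of all its loci. Their median log2 fold change was 0.81. In 11 of 12 all KO libraries exceeded all WT libraries, against 16.3% of all tested loci. The called genes were Dbh, which makes noradrenaline, at 600.2, 607 and 576 CPM in KO against 359, 384 and 289 CPM in WT (log2 fold change 0.79, edgeR adjusted p = 0.0464), and the transcription factors Phox2a (0.79, adjusted p = 0.0489), Hand2 (0.93, adjusted p = 0.0464) and Gata3 (0.98, adjusted p = 0.0442; its locus also holds 9230102O04Rik). The geometric mean of the 12 genes was 121, 121 and 114 CPM in KO against 63.5, 82.2 and 62.9 CPM in WT, with WT replicate 2 again the highest WT library. In the other direction, 8 tested cortex markers summed to 19996 to 22184 CPM in KO and 23454 to 39919 CPM in WT, without a called gene. Of 6 markers that sympathetic neurons share in part with chromaffin cells, Isl1 and Stmn2 were called higher, against 1.41% of all tested loci. Npy and Elavl4 stood apart on the higher side without a call. Prph (log2 fold change 0.12) and Gap43 (-0.59) overlapped. The sums were 318 to 455 CPM in KO against 122 to 240.4 CPM in WT. Npy alone gave most of these sums, with 275 to 415 CPM in KO and 101 to 217 CPM in WT. None of 7 Schwann and sustentacular markers (45.9 to 46.4 CPM in KO against 36.5 to 59.0 CPM in WT), 6 endothelial markers (445 to 549 CPM in KO against 628 to 718 CPM in WT) or 6 macrophage markers (132 to 169 CPM in KO against 138 to 368 CPM in WT) was called. At an unadjusted p under 0.05, 2 cortex, 4 Schwann and sustentacular, 5 endothelial and 2 macrophage markers passed. Of all tested loci 22.2% passed in either direction. All of these markers had lower values in KO but Erbb3 of the Schwann and sustentacular list (log2 fold change 0.67, edgeR adjusted p = 0.168). DESeq2 called 2, 2, 5 and 0 markers of these lists, all lower in KO, against 4.88% of all its loci. The part of the chromaffin share of the gland in the differences of the granin and processing genes was not tested.

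Set against the chromaffin identity genes of the same library, the large granins overlapped between the groups, whereas Vgf, Scg3, both convertases and Pcsk1n stayed apart on the higher side in KO and Cpe on the lower side. On the log2 scale and relative to the mean of the 12 genes, Chga stood at 3.21, 3.20 and 3.35 in KO against 3.09, 3.14 and 3.21 in WT, an overlapping difference of 0.11 (exact two-sided permutation p = 0.3). The differences of Chgb (0.27, exact permutation p = 0.2), Scg2 (0.10, exact permutation p = 0.4) and Scg5 (-0.63, exact permutation p = 0.3) overlapped too. Vgf stood at -2.79, -2.92 and -2.82 in KO against -4.46, -5.05 and -4.61 in WT, a difference of 1.87. Pcsk1 (0.47), Pcsk2 (0.53), Scg3 (0.28) and Pcsk1n (0.27) were also higher in every KO library than in every WT library. Cpe stood at 2.16, 1.89 and 2.31 in KO against 2.96, 2.92 and 3.27 in WT, a difference of -0.93. Each of these 6 genes without overlap reached the smallest p that 3 against 3 libraries allow, an exact permutation p of 0.1, or 0.167 after Benjamini-Hochberg adjustment over the 10 genes, so this design could not pass a threshold of 0.05. The share of all tested loci without overlap was not computed for this ratio. With libraries scaled to these 12 genes, the median log2 fold change of all tested loci was -0.79, so a lower value was not particular to Cpe.

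**Figure D3:**
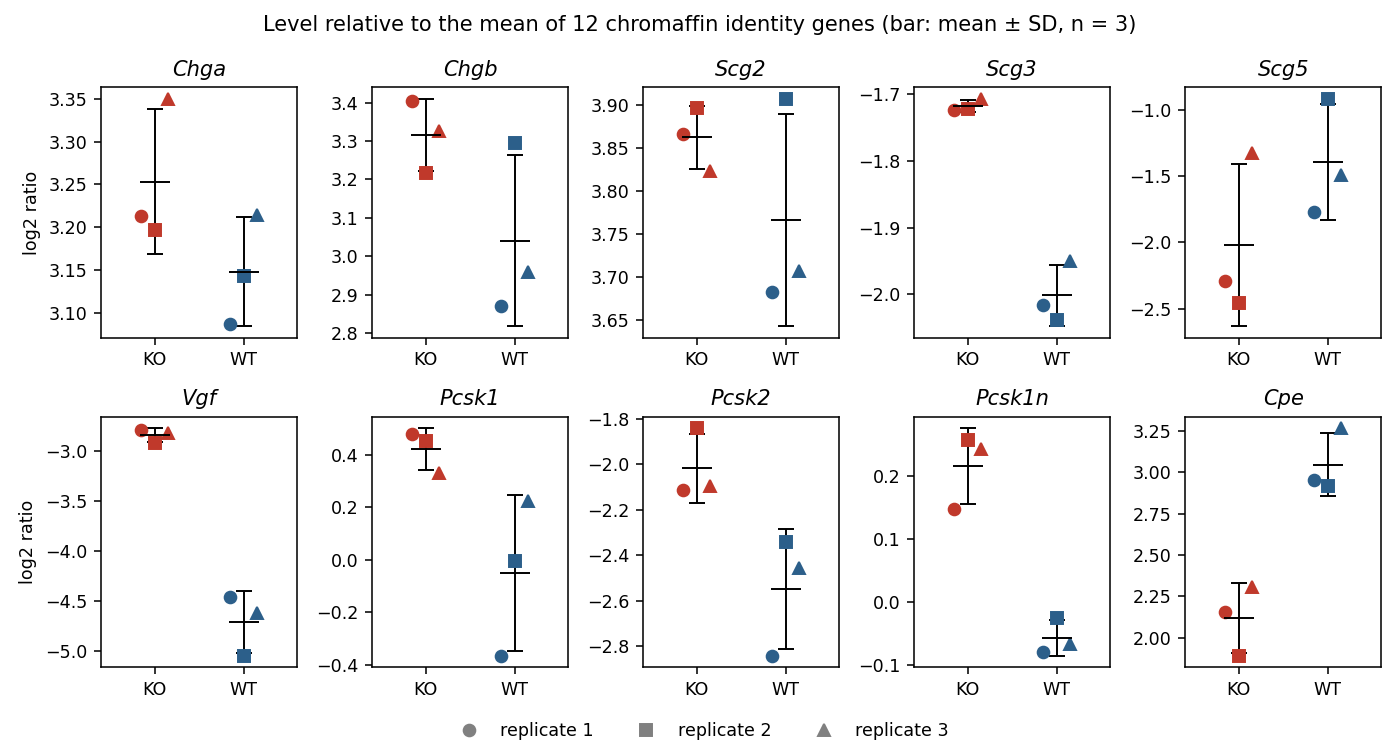
Log2 ratio of each gene to the mean of 12 chromaffin identity genes in the same library, for KO (red, left) and WT (blue, right), with mean ± SD; each panel has its own axis range, which does not start at 0. Vgf, Pcsk1, Pcsk2, Scg3 and Pcsk1n lie higher in all KO libraries, Cpe lies lower in all of them, and Chga, Chgb, Scg2 and Scg5 overlap.

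A further fit was scaled so that the geometric mean of the chromaffin identity genes was equal in all libraries. It was added after the data were seen and set every tested locus against these genes. In it Vgf (log2 fold change 1.85, SE 0.22, edgeR adjusted p = 0.00463) and Pcsk2 (0.52, SE 0.19, edgeR adjusted p = 0.0457) were called higher, 2 of 10 against 1.18% of all tested loci. Cpe was called lower (-0.93, SE 0.22, edgeR adjusted p = 0.00756), 1 of 10 against 51.0% of all tested loci. The median of all tested loci in this fit was -0.79, and 52.2% of them were called in either direction. With so many loci called, the Benjamini-Hochberg adjustment let weaker differences pass here than with TMM scaling. Pcsk2 passed here at 0.52 (SE 0.19), whereas its larger difference with TMM scaling (1.27, SE 0.23) did not. Pcsk1 had a log2 fold change of 0.45 (edgeR adjusted p = 0.0758) and Chga of 0.11 (edgeR adjusted p = 0.666).

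**Figure D4:**
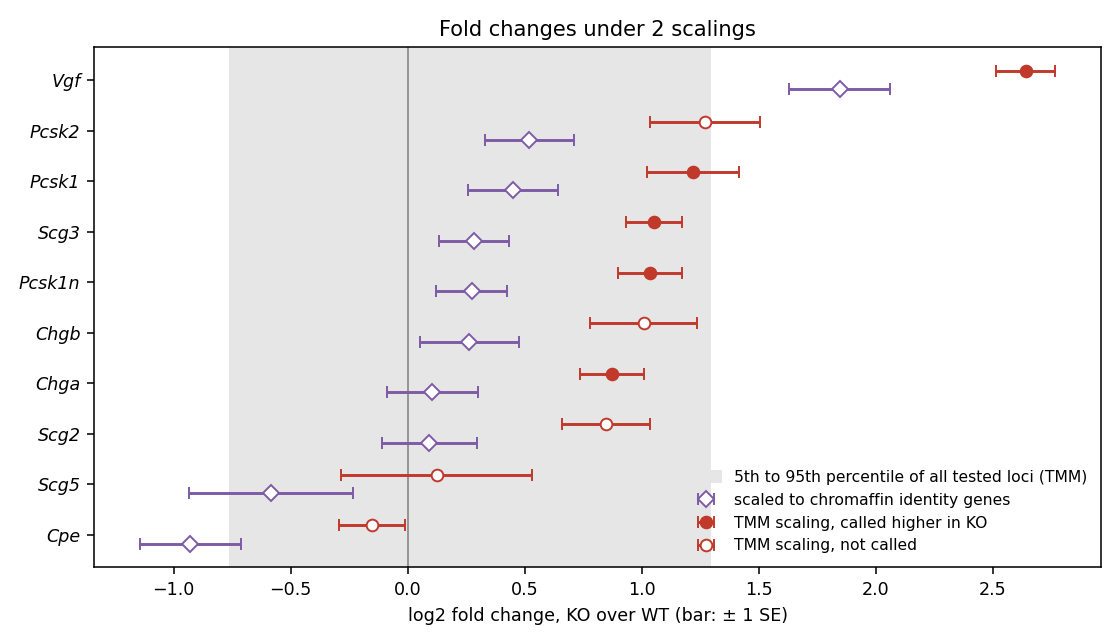
Log2 fold change of KO over WT with ± 1 SE for each gene, with TMM scaling (red circles, filled where called) and scaled to the chromaffin identity genes (purple diamonds); the grey band holds the 5th to 95th percentile of all tested loci with TMM scaling. Vgf stands at 2.64 and 1.85, and Cpe at -0.15 and -0.93.

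The rest of the pathway, 48 further tested loci in 4 lists, held 1 call, where 1.84% of all tested loci were called. In the list of granule membrane and biogenesis genes 1 of 18 tested loci was called, against 1.41% of all tested loci called higher. The list's median log2 fold change was 0.29. The KO libraries lay wholly above WT for 9 loci and wholly below for 3, against 16.3% and 14.2% of all tested loci. The called locus was Rab27a, a small GTPase that docks granules at the plasma membrane, at 68.7, 67.7 and 65.9 CPM in KO against 39.9, 42.9 and 33.7 CPM in WT (log2 fold change 0.80, edgeR adjusted p = 0.0301; the locus also holds Gm27186). Resp18, an endocrine granule protein, was at 102, 118 and 108 CPM in KO against 41.0, 63.3 and 37.2 CPM in WT (1.21, edgeR adjusted p = 0.0511). Ptprn, a membrane protein of dense-core granules known as an autoantigen of type 1 diabetes, was at 166, 173 and 153 CPM in KO against 67.9, 104 and 67.2 CPM in WT (1.04, edgeR adjusted p = 0.0532). Slc18a2, a vesicular monoamine transporter, had a log2 fold change of 0.72 (edgeR adjusted p = 0.0512); it, Slc18a1 and Cyb561 also stand on the chromaffin identity list. At an unadjusted p under 0.05, 11 of these 18 loci passed, against 22.2% of all tested loci. DESeq2 called 7 higher and 2 lower, against 7.49% and 4.88% of all its loci.

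None of the tested prohormone genes, a list that leaves out the granins, was called. Of 28 prohormone genes 12 were tested, 15 had too few counts and 1 was merged with another gene; the median log2 fold change of the tested loci was 0.67. Npy, the precursor of neuropeptide Y and the most abundant of them, was at 415, 315 and 275 CPM in KO against 101, 217 and 111 CPM in WT (log2 fold change 1.23, edgeR adjusted p = 0.107). Pdyn, the dynorphin precursor, was at 0.444, 0.538 and 0.317 CPM in KO against 0.109, 0.193 and 0.0748 CPM in WT (1.74, edgeR adjusted p = 0.1001). Adm, the adrenomedullin precursor, had a log2 fold change of 0.87 (edgeR adjusted p = 0.13) and Gal, the galanin precursor, of 0.56 (edgeR adjusted p = 0.161). Penk, the enkephalin precursor, named for its known place in chromaffin granules and not by the rule, overlapped at 4.70, 6.77 and 6.41 CPM in KO against 10.2, 5.24 and 3.48 CPM in WT. Nppb, Nppa, Ucn, Galp and Nmu had no counts in any library. At an unadjusted p under 0.05, 5 of the 12 loci passed, against 22.2% of all tested loci. DESeq2 called 3 of the 12 higher, against 7.49% of all its loci.

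The other proteases and modifying enzymes, most of which many cell types express, had medians near that of all loci. For 6 tested loci of other convertases and their cofactors the median log2 fold change was -0.0014 and none was called. Furin, the convertase of the constitutive pathway, was at 177, 153 and 269 CPM in KO against 114, 147 and 107 CPM in WT (0.70, edgeR adjusted p = 0.163). Pcsk5 (-0.34, edgeR adjusted p = 0.247), Pcsk4 (0.46, edgeR adjusted p = 0.257) and the locus of Ctsl with Gm49230 (-0.60, edgeR adjusted p = 0.472) did not pass. For 12 loci of end trimming and modification the median was -0.14 and none was called. Cpd, a carboxypeptidase of the trans-Golgi that, like Cpe, removes basic end residues, was at 146, 120.0 and 145 CPM in KO against 150.1, 189 and 181 CPM in WT (-0.34, edgeR adjusted p = 0.199). Qpct, which forms pyroglutamate ends, had a log2 fold change of 0.67 (edgeR adjusted p = 0.231), Tpst1 -0.22 (edgeR adjusted p = 0.36) and Rnpep -0.15 (edgeR adjusted p = 0.359). Pam, the peptide amidating enzyme, named for its role and not by the rule, was at 353, 331 and 382 CPM in KO against 391, 387 and 394 CPM in WT (-0.14, edgeR adjusted p = 0.421). DESeq2 called none of these 18 loci, against 12.4% of all its loci in either direction. The count of loci at an unadjusted p under 0.05 was 1 in each of the 2 lists, against 22.2% of all tested loci.

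**Figure D5:**
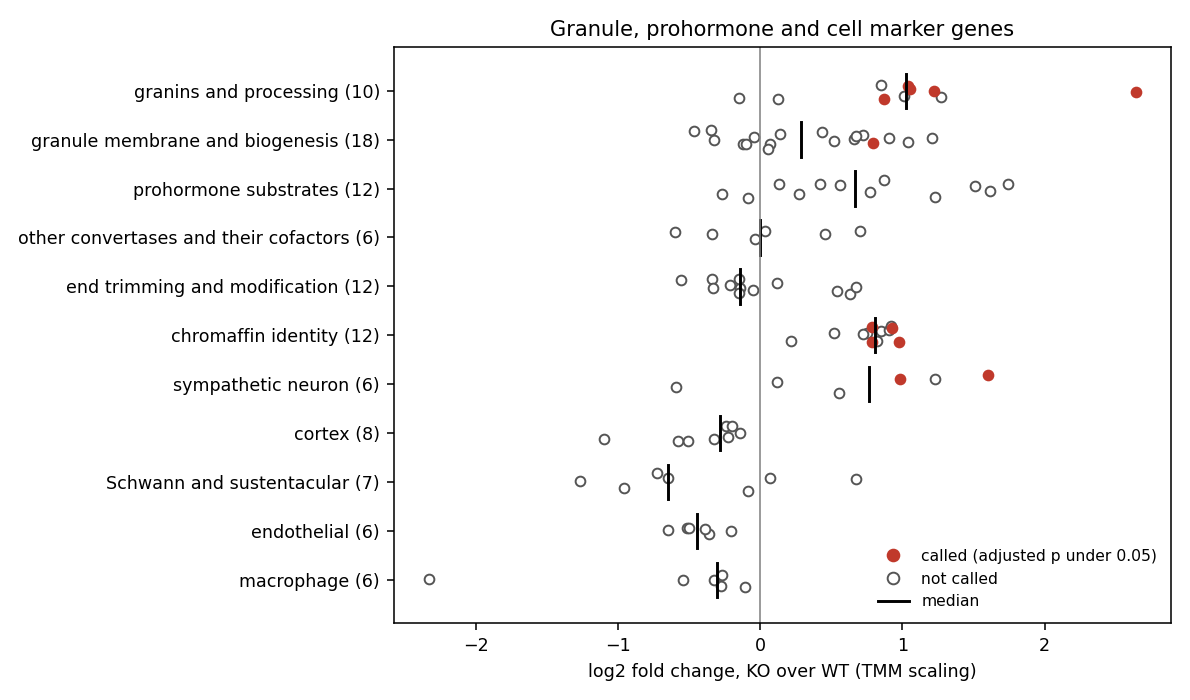
Log2 fold change of KO over WT (TMM scaling) of every tested locus in each list, with filled points for called loci, vertical bars for the list's median and the number of tested loci in brackets. The granin and processing genes have a median of 1.02 and the chromaffin identity genes of 0.81, whereas the other convertases, at -0.0014, and the end-trimming enzymes, at -0.14, lie near 0.

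The loci whose pattern over the 6 libraries was most like the mean of the 10 genes were Clmn (calmin), Mab21l2, the merged locus of Gbp4, Gbp9 and Gbp8, Irf7 and Zfp563, with Pearson r of 0.997, 0.997, 0.995, 0.993 and 0.993 in that order, taken over loci with a mean of at least 10 CPM. The 6 points include both groups, so r holds the difference between KO and WT. Of the 10 genes, Cpe (Pearson r -0.25) and Scg5 (0.40) followed the mean of the others least. The rest had r of 0.85 to 0.98. Clmn stood at 44.1, 40.1 and 45.6 CPM in KO against 18.5, 28.7 and 20.4 CPM in WT. Irf7 stood at 37.6, 39.1 and 40.4 CPM in KO against 6.12, 20.6 and 9.77 CPM in WT. None of the 5 loci was called (edgeR adjusted p from 0.057 to 0.233).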

How the data were processed

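RNA of 3 KO and 3 WT adrenal gland samples was compared. The authors deposited whole-number read counts per locus, raw per the file headers, log2 CPM values, and log2 values scaled to Rn7sk; the lengths in base pairs used for CPM per kilobase are other columns deposited by the authors. Tools named for GRCm38 were Trimmomatic, STAR, Picard, StringTie and edgeR, per the submitters' processing notes; for versions, read counter and strand use, nothing is given in the sources used here. Values scaled to Rn7sk and values per group stayed unused. Unnamed loci (1.39% to 2.04% of each library) were dropped before library sizes were computed.

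The quasi-likelihood test of edgeR 4.0.16 (R 4.3.3; robust glmQLFit, TMM factors, filterByExpr on the genotype groups) was run on the counts, with Benjamini-Hochberg adjustment over 21358 loci. A gene was called at an adjusted p under 0.05. SEs were derived from the fold change and the F statistic. The members and gene lists were chosen with earlier results of these data known. Loci merged with another coding gene were left out of lists. The text names the 10 genes, Armc5, called loci and up to 4 loci of smallest p of each pathway list, called chromaffin genes and the 5 most alike loci. Scaling was varied (RLE, library totals, Rn7sk, and chromaffin identity genes, the last added after the data were seen), as were the filter (a single count, or 10 CPM in 3 libraries), the samples (each library left out, a replicate block) and the tool (DESeq2 1.42.0, limma-voom with quality weights, and limma-trend 3.58.1 on the authors' log2 values). The test was checked on simulated data, and no libraries of a group agreed within sampling noise. Counts of the 10 genes ran from 206 to 208142 per library, the lowest being those of Vgf in WT.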

Additional observations from a re-analysis of the deposited data

How the results depend on the processing

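There were 393 calls over all loci as reported (301 higher, 92 lower), 672 (637 higher, 35 lower) with library totals alone, 711 (669, 42) with equal Rn7sk counts, 16 without KO replicate 3 and WT replicate 1, 2626 with DESeq2, 975 with limma-trend, 1527 with limma-voom and 11152 (252, 10900) scaled to chromaffin identity genes, a setting chosen after seeing the data; leaving out 1 library gave 15 to 644. The median log2 fold change of all loci was 0.22 with library totals, 0.19 with Rn7sk and -0.79 scaled to chromaffin genes, where that of the 10 genes was 1.23, 1.21 and 0.27. Of the 10 genes 5 were called as reported, 8 with DESeq2, limma-trend and limma-voom, 1 without KO replicate 3 and WT replicate 1, 3 scaled to chromaffin genes and 1 to 8 without 1 library. Of the 48 other prohormone and granule loci 1 was called as reported, 5 with library totals and with Rn7sk, 4 without the count filter and with the filter at 10 CPM, 0 without KO replicate 3 and WT replicate 1, 12 with DESeq2, 6 with limma-trend, 10 with limma-voom, 22 (1 higher, 21 lower) scaled to chromaffin genes and 0 to 7 without 1 library. The replicate numbers did not pair the samples (correlations of same-numbered deviations -0.05, 0.02 and -0.12); with the replicate block 5 loci, 0 of the 10 genes and 0 of the 48 loci were called, and Vgf had an adjusted p of 0.0534. The log2 fold change of Scg5 ran from -0.27 (leaving out KO replicate 3) to 0.61 (leaving out WT replicate 2), with -0.10 when WT replicate 1 and -0.02 when WT replicate 3 was left out; it reversed to -0.50 with both KO replicate 3 and WT replicate 1 left out and to -0.58 scaled to chromaffin genes. That of Cpe reversed to 0.066 with library totals, 0.050 with Rn7sk and 0.073 with limma-trend. The cause of these changes was not tested. The relative levels kept their direction against 5 catecholamine genes in place of 12 markers.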
